A study of Mus musculus with 6 samples.

Results

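The immediate early genes described here are Fos, Fosb, Jun, Junb, Jund, Egr1, Atf3, Ier2, Dusp1 and Zfp36, 10 of the 55076 rows of the expression tables, found by gene symbol. All 10 were among the 12833 tested rows, whose FPKM (fragments per kilobase of exon, scaled to the size of the library) averaged 1 or more over the 6 mice. RNA-seq was done on the whole anterior prostate (AP) of male mice at 20 weeks of age, in 3 OEx mice and 3 Ctrl mice, 1 library per mouse. OEx mice were Pbsn-Cre Rosa26 N1ICD/+, so that the probasin promoter switched on the intracellular domain of Notch1 in prostatic epithelium. Ctrl mice carried the same Rosa26 N1ICD/+ allele without Cre, although the sample labels call them wild type. The comparison addresses what active Notch1 in the epithelium does to the expression of genes in the AP.

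Immediate early genes are transcribed within minutes of a growth factor, calcium or stress signal, from factors already present in the cell, and their messengers are short-lived. Fos and Jun proteins pair through leucine zippers to form AP-1. Egr1 encodes a zinc finger factor, and Atf3 a factor of the ATF family, of which some members are counted as AP-1 subunits below. Dusp1 and Zfp36 encode proteins that end the response by removing phosphates from MAP kinases and by promoting messenger decay. In the prostate, AP-1 and Egr1 have been studied in hyperplasia and in tumour models.

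Libraries held between 14762182 and 18650962 reads recovered on annotated genes. Notch1, which checks the genotype, stood at 41.9, 47.6 and 78.9 FPKM in OEx mice and at 5.18, 5.55 and 3.34 FPKM in Ctrl mice, with reads on Notch1 exons that cannot be assigned to the native gene or to the Rosa26 allele. Replicates 1 and 2 of each group were much closer to each other than to replicate 3 (chi-square per gene of 2.93 and 3.67, against 50.4 to 86.7), and each was kept as its own mouse, as the labels have it. Ctrl replicate 3 stood apart from the other Ctrl mice. It had 1.31% of its reads on 8 genes of the seminal vesicle, against 3.25e-04% or less in the other 5 libraries. Values are therefore given for every mouse, and the fit of each member is repeated without Ctrl replicate 3. The Ctrl spread in that fit is that of replicates 1 and 2 alone, so its FDRs say little of the spread between mice. Nothing in the labels ties the mice to litters or days, so p-values measure only the spread between these samples.

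Promoters of 8 members were found in a RefSeq table for the GRCm38.p6 build, taken as the 250 bases before the start of transcription. The motif TGACG, part of the cyclic AMP response element bound by CREB and ATF proteins, occurred on either strand in 5 of the 8 (Fos, Fosb, Junb, Atf3 and Dusp1), and in 17.8% of 32851 promoters of the same length. All 5 were called lower in OEx mice, as was Jund, which has no TGACG in its window, so 6 of the 8 were called against 15.7% of all tested genes. The full element TGACGTCA, which holds TGACG on both strands, was found in Dusp1 alone, and in 1.55% of promoters. The AP-1 site TGANTCA was in none of the 8, against 6.75% of promoters, which says only that these letters were not in the window. A CArG box, bound by serum response factor, was found in Zfp36 (1.47% of promoters). The promoters of 5 members are shown, 3 that fell and hold the motif, Jund, which fell and does not hold it, and Jun, which did not pass the test and does not hold it, with TGACG or its reverse complement in capitals. The strands and positions are Fos, chr12:85473640-85473889, plus, Atf3, chr1:191183334-191183583, minus, Dusp1, chr17:26508473-26508722, minus, Jund, chr8:70697489-70697738, plus, and Jun, chr4:95052223-95052472, minus.
Fos: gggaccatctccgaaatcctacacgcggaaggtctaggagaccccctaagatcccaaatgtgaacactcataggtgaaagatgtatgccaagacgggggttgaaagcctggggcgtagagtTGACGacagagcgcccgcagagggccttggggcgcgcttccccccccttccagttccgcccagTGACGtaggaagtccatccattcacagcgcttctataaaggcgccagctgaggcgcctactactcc
Atf3: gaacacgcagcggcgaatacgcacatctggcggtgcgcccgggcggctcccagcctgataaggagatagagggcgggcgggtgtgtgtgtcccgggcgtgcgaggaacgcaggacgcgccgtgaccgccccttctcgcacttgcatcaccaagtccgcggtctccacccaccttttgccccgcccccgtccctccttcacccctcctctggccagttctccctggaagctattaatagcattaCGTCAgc
Dusp1: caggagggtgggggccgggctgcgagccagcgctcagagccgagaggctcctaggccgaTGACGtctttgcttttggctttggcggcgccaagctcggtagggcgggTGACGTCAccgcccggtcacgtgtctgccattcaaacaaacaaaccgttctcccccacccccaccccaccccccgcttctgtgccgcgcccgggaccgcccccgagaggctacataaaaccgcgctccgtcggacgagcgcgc
Jund: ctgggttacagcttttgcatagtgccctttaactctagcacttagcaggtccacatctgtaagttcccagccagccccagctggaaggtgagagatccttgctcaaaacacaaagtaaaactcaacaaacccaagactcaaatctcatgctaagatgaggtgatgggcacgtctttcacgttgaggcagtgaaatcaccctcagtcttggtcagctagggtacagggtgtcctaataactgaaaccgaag
Jun: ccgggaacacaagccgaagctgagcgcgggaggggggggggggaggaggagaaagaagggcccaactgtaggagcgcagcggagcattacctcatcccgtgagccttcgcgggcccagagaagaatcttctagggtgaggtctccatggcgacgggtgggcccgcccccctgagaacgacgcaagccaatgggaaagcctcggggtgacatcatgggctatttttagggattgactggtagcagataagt
Counted from the start of transcription, TGACG began 129 and 66 bases upstream in Fos and 7 bases upstream in Atf3. In Dusp1 it began 191, 143 and 140 bases upstream. For Atf3, Dusp1 and Zfp36, the RefSeq start lay inside the longer gene span of the annotation used for the expression values. For Fosb it lay inside by a few bases, and for Junb and Jund it lay upstream of the span. A match is a description of the sequence and not a measured binding site.

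In OEx mice 7 members were called lower and none higher. Fos, Fosb, Junb, Jund, Egr1, Atf3 and Dusp1 passed an FDR under 0.05 and a log2 fold change below -1 in limma on log2(FPKM + 1), whereas 15.7% of all tested genes were called lower and 12.9% higher. Jun, Ier2 and Zfp36 did not pass. Fosb averaged under 1 FPKM in OEx mice and so was tested only because of its level in Ctrl mice. Of the other 9 members, 6 were called lower. The median log2 fold change of the 10 members was -1.61, and that of all tested genes was -0.08. In the 7 called members every OEx mouse was below every Ctrl mouse, a pattern that 38.9% of all tested genes also showed. The same 7 members were those lower at an FDR under 0.05 with no fold criterion, against 36.5% of all tested genes. In bulk tissue, fewer cells of a type and less RNA per cell cannot be told apart.

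**Figure D1:**
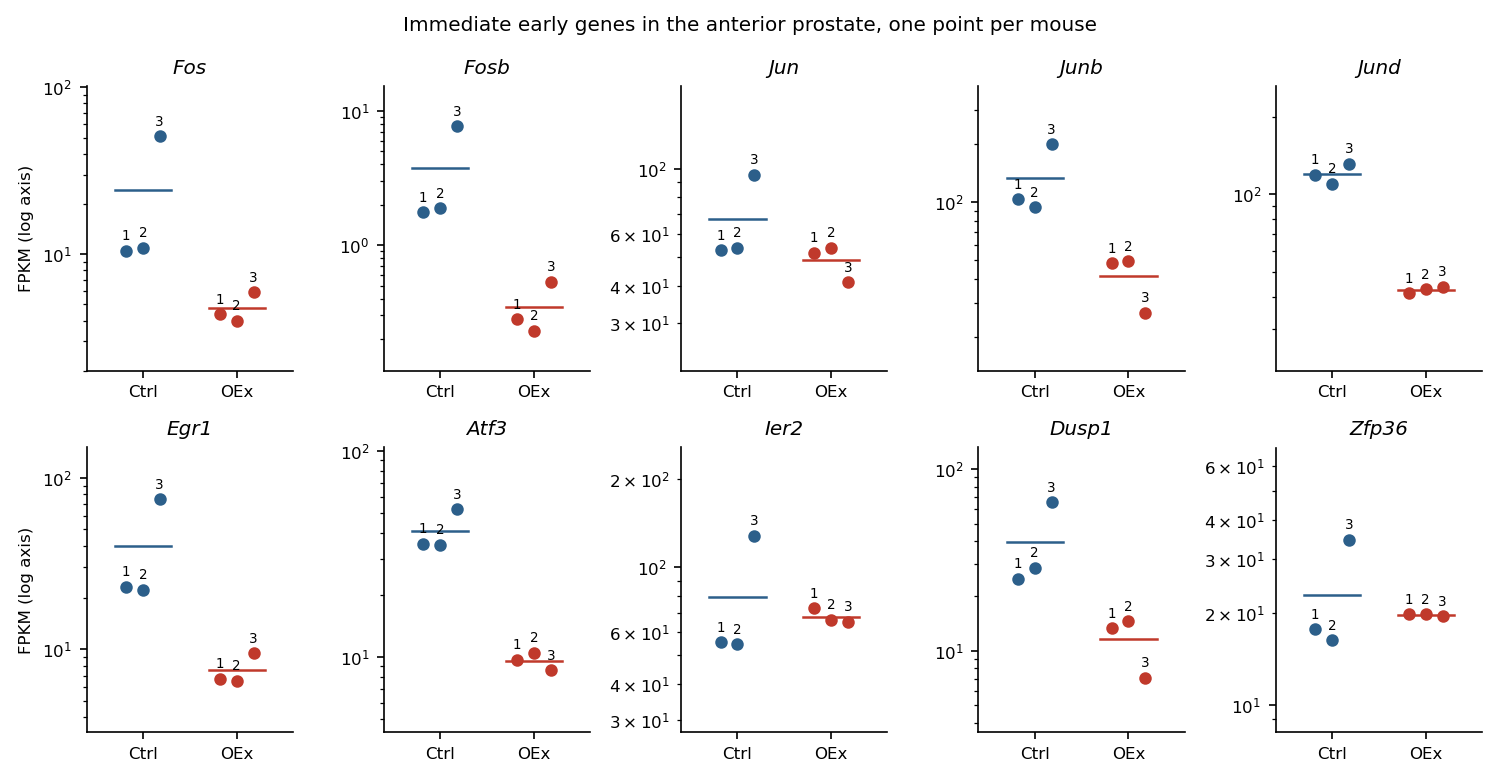
FPKM of the 10 immediate early genes in each mouse on log axes, with Ctrl mice in blue, OEx mice in red, the replicate number above each point and the group mean as a line. Ctrl replicate 3 is the highest point in all 10 panels, and the groups do not overlap in Fos, Fosb, Junb, Jund, Egr1, Atf3 and Dusp1.

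Both Fos family members fell in OEx mice. Fos, the prototype partner of Jun proteins (chr12:85473890-85477273, plus strand, GRCm38), was at 4.37, 4.0 and 5.91 FPKM in OEx mice and at 10.5, 10.97 and 50.9 FPKM in Ctrl mice. The groups did not overlap, and Ctrl replicate 3 was 4.75 times the mean of the other Ctrl mice, the largest such excess among the members. The means were 4.76 ± 1.02 and 24.1 ± 23.2 FPKM (SD, n = 3 each), with a log2 fold change of -1.75 (SE 0.575, limma FDR 0.0319). Without Ctrl replicate 3 the change was -1.04 (limma FDR 0.00234). The call of Fos was lost when any single OEx mouse was left out, with limma FDRs between 0.0537 and 0.0850.

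Fosb, which encodes a further Fos protein (chr7:19302696-19310051, minus strand), was nearly absent from OEx mice, at 0.281, 0.231 and 0.532 FPKM, or 35, 33 and 60 reads. The exact 95% Poisson interval of 33 reads is 22.7 to 46.3, which covers counting error only. In Ctrl mice it was at 1.77, 1.88 and 7.67 FPKM, or 138, 152 and 728 reads, so the gene passed the filter on low values only through this group and its call is no support for a change of the members. All Ctrl mice were above all OEx mice, and the Ctrl mean was 10.8 times the OEx mean. The log2 fold change of -1.61 (SE 0.441, limma FDR 0.0160) understates this, since 1 FPKM was added to each value before taking logs. Leaving out Ctrl replicate 3 gave -1.07 (limma FDR 0.00185).

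Junb and Jund fell, and Jun did not pass the test. Jund (chr8:70698949-70700616, plus strand), the Jun member known for steady expression in resting cells, was at 41.3, 42.7 and 43.7 FPKM in OEx mice and at 119, 110.1 and 132 FPKM in Ctrl mice. Relative to their means, its groups were the tightest of any called member, 42.6 ± 1.25 against 120.2 ± 10.8 FPKM (SD, n = 3), and the smallest FDR. The log2 fold change was -1.47 (SE 0.0918, limma FDR 4.52e-05), and -1.41 without Ctrl replicate 3. Junb, a Jun protein that can restrain proliferation (chr8:84974484-84978718, minus strand), was at 48.2, 49.2 and 26.6 FPKM in OEx mice and at 103, 93.9 and 199 FPKM in Ctrl mice. OEx replicate 3 was the lowest and Ctrl replicate 3 the highest, and the log2 fold change was -1.62 (SE 0.352, limma FDR 0.00605). It was -1.29 without Ctrl replicate 3 (limma FDR 0.0101).

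Jun, the founding member of its family (chr4:95049034-95052222, minus strand), was at 51.8, 53.9 and 41.1 FPKM in OEx mice and at 52.7, 53.8 and 95.4 FPKM in Ctrl mice. Replicates 1 and 2 of both groups lay within 51.8 to 53.9 FPKM, and the replicate 3 mice lay on opposite sides of them. Its log2 fold change was -0.41 with a 95% interval of -0.99 to 0.18 (limma FDR 0.182). Without Ctrl replicate 3 it was -0.13, with an interval of -0.46 to 0.20.

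The make-up of the Fos and Jun family transcripts of AP-1 within a mouse does not depend on scaling between mice. Jun made up 33.4, 33.8 and 32.1% of the summed FPKM of Fos, Fosb, Fosl1, Fosl2, Jun, Junb and Jund in OEx mice and 18.02, 19.5 and 19.5% in Ctrl mice. These shares did not overlap and, at 33.1 ± 0.853% and 19.0 ± 0.841% (SD, n = 3), were tight in both groups, Ctrl replicate 3 included. Fosl2, a further Fos family subunit, took 5.75, 5.66 and 7.27% in OEx mice and 1.56, 1.54 and 1.04% in Ctrl mice. Its own level was 8.93, 9.03 and 9.30 FPKM against 4.57, 4.25 and 5.09 FPKM, a log2 fold change of 0.84 that did not reach the fold criterion (limma FDR 2.6e-04).

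Other subunits took a smaller or an overlapping share. Junb took 31.0, 30.8 and 20.8% in OEx mice and 35.3, 34.1 and 40.6% in Ctrl mice, with no overlap. Jund took 26.6, 26.8 and 34.2% against 40.7, 39.9 and 26.8%, so the groups overlapped through their replicate 3 mice. Fos shares also overlapped, at 2.81, 2.5 and 4.62% against 3.58, 3.98 and 10.4%. The 4 Fos genes summed to 9.03, 8.68 and 12.9% in OEx mice and 5.99, 6.53 and 13.1% in Ctrl mice, so that their summed share did not separate the groups.

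**Figure D2:**
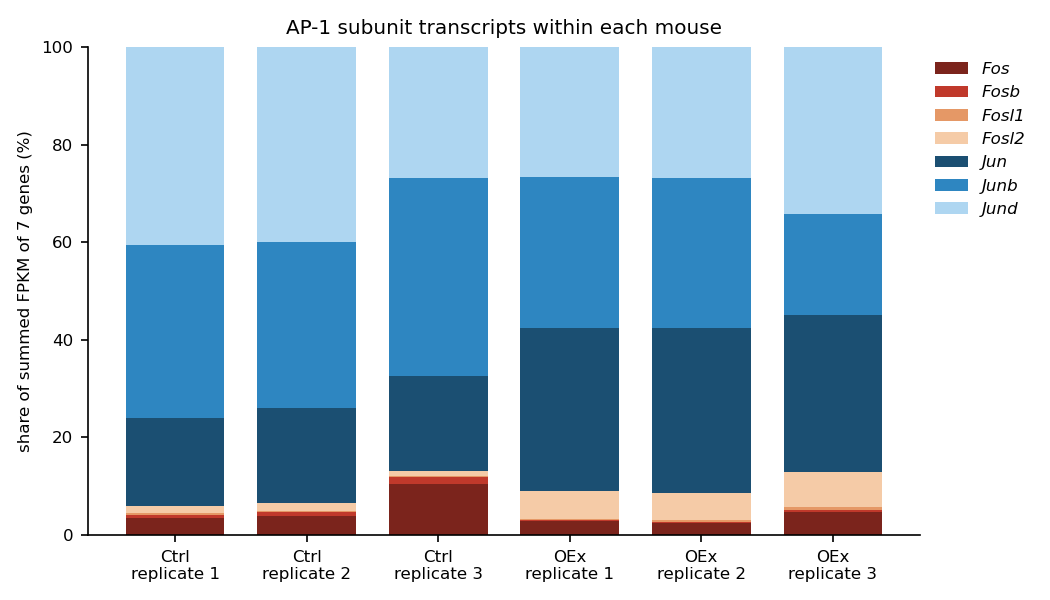
Share of the summed FPKM of 7 AP-1 genes taken by each gene, in percent, as 1 stacked bar per mouse. Jun takes 32.1 to 33.8% in OEx mice and 18.02 to 19.5% in Ctrl mice, and Fosl2 takes 5.66 to 7.27% and 1.04 to 1.56%.

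Ratios between genes of the same mouse are also free of that scaling. The ratio of Fos to Fosl2 was 0.489, 0.442 and 0.636 in OEx mice and 2.29, 2.58 and 10 in Ctrl mice. Jund to Jun gave 0.796, 0.793 and 1.06 against 2.26, 2.05 and 1.38, and Junb to Jun gave 0.930, 0.912 and 0.647 against 1.96, 1.75 and 2.09. The groups did not overlap in the 8 ratios computed, which set a called member against another gene, so the separation follows in part from the choice of pairs. For ratios and shares that did not overlap, the two-sided exact permutation p was 0.1, the smallest that 3 mice against 3 allow, and 0.131 after Benjamini-Hochberg adjustment over 17 such quantities. The pairs were chosen with the values of the members known, and single genes separated the groups in 38.9% (lower) and 33.4% (higher) of those tested.

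Egr1 and Atf3 had the largest falls among the members on the log2(FPKM + 1) scale. Egr1, a zinc finger factor on chromosome 18 that is induced through serum response factor, was at 6.72, 6.54 and 9.49 FPKM in OEx mice and at 23.1, 22.3 and 75.2 FPKM in Ctrl mice. Ctrl replicate 3 was 3.31 times the other Ctrl mice, and those were still above every OEx mouse. The log2 fold change was -2.04 (SE 0.460, limma FDR 0.00712), and -1.48 without Ctrl replicate 3 (limma FDR 7.61e-04). Atf3, a stress-induced member of the ATF family that often represses its targets (chr1:191170296-191218039, minus strand), was at 9.70, 10.5 and 8.59 FPKM in OEx mice and at 35.4, 35.1 and 52.0 FPKM in Ctrl mice. OEx mice were close together and Ctrl replicate 3 was 1.48 times the other Ctrl mice. The log2 fold change of -1.96 (SE 0.169, limma FDR 1.19e-04) moved little without Ctrl replicate 3, to -1.78.

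Ier2, a nuclear early response protein (chr8:84661331-84662852, minus strand), differed from these. It was at 72.3, 66.1 and 65.0 FPKM in OEx mice and at 55.5, 54.6 and 128 FPKM in Ctrl mice. Ctrl replicates 1 and 2 were below every OEx mouse and Ctrl replicate 3 was above. Its log2 fold change was -0.11 with a 95% interval of -0.88 to 0.67 (limma FDR 0.787). Without Ctrl replicate 3 it became 0.29 with an interval of 0.11 to 0.48 (limma FDR 0.0152), a higher level in OEx mice that is under the fold criterion. At an FDR under 0.05 with no fold criterion, 30.6% of all tested genes were higher in OEx mice in that fit. The ratio of Egr1 to Ier2 was 0.0930, 0.0991 and 0.146 in OEx mice against 0.417, 0.409 and 0.587 in Ctrl mice, without overlap.

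Of the genes that limit the response, Dusp1 fell. Dusp1, a phosphatase that inactivates MAP kinases in the nucleus (chr17:26505590-26562128, minus strand), was at 13.3, 14.5 and 7.09 FPKM in OEx mice and at 24.9, 28.6 and 65.6 FPKM in Ctrl mice. OEx replicate 3 was 0.509 times its group mates and Ctrl replicate 3 was 2.45 times its own. The log2 fold change was -1.61 (SE 0.411, limma FDR 0.0121), and -1.19 without Ctrl replicate 3 (limma FDR 0.0162). With both replicate 3 mice left out it was -0.89, short of the fold criterion. Zfp36, which encodes tristetraprolin, a protein that binds AU-rich messengers for decay (chr7:28376784-28380253, minus strand), was at 19.8, 19.8 and 19.5 FPKM in OEx mice and at 17.7, 16.3 and 34.6 FPKM in Ctrl mice. The OEx mice were nearly equal and lay between the Ctrl mice. Its log2 fold change was -0.13 with a 95% interval of -0.76 to 0.51 (limma FDR 0.697), and 0.20 without Ctrl replicate 3 (limma FDR 0.0409).

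**Figure D3:**
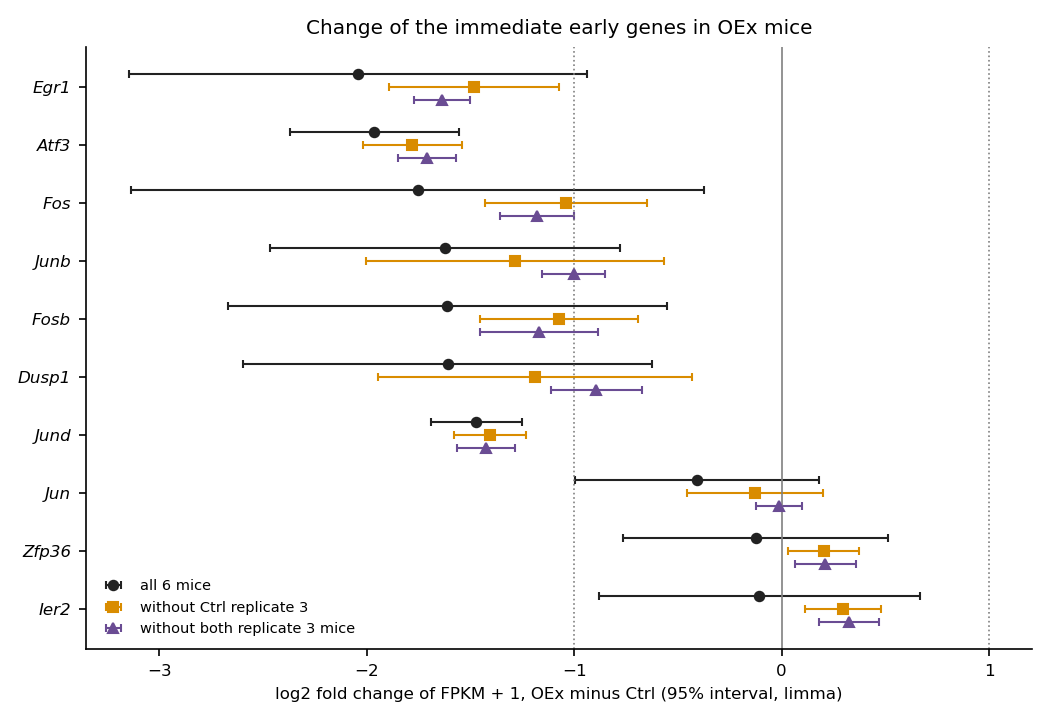
Log2 fold change of FPKM + 1 (OEx minus Ctrl, x axis) of each immediate early gene with its 95% limma interval, from all 6 mice, without Ctrl replicate 3 and without both replicate 3 mice, with dotted lines at the fold criterion. From all 6 mice 7 genes are called lower, and 7 and 6 in the other fits, while Ier2 and Zfp36 move from below 0 to 0.29 and 0.20 without Ctrl replicate 3.

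The 7 called members kept their call without Ctrl replicate 3, when 15.9% of all tested genes were called lower. Without both replicate 3 mice, 6 of them kept it, against 16.5% of all tested genes. In both fits the Ctrl mice were replicates 1 and 2, which were much closer to each other than to replicate 3. The SE of Fos went from 0.575 to 0.155 and 0.0689, so the kept calls say little of the spread between mice. All 7 called members stayed below 0 under every alternative run. The calls depended on how the mice were scaled to each other. The deposited values already carry a scaling, and rescaling to an equal sum per mouse (TPM), or to one that leaves out the 20 most abundant genes, moved the median log2 fold change of all tested genes from -0.08 to 0.65 and 0.45. Egr1, Atf3 and Fosb were called under both, when 3.93% and 5.59% of all tested genes were called lower. Fosb passed the filter on low values only through Ctrl mice, so of the remaining members only Egr1 and Atf3 kept their call. The members' median relative to that of all genes was -1.4 and -1.43, against -1.53. Relative to the median of all genes, Jun was at -0.17 and -0.21, Ier2 at 0.13 and 0.09, and Zfp36 at 0.08 and 0.05. After correction for GC content 4 members were called lower (Junb, Egr1, Atf3 and Dusp1), against 11.2% of all tested genes. Jun, Jund and Zfp36 overlap antisense genes, and Junb, Atf3 and Dusp1 overlap other genes of the annotation. Counting by strand is not stated, so some reads of these members cannot be assigned.

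All 10 members were highest in Ctrl replicate 3 of the 6 mice, as were 21.0% of all tested genes. In 7 members it was at least 2 times the mean of the other Ctrl mice, against 5.53% of all tested genes, and in 9 at least 1.4 times, against 16.0%. The median over members was 2.18 times, and over all tested genes 0.968 times. Jund, at 1.15 times, and Atf3, at 1.48 times, moved least. OEx replicate 3 was at a median of 0.962 times its group mates over the members and 1.06 times over all tested genes. The members went both ways in this mouse. It was 2.08 times its group mates in Fosb, 1.43 times in Egr1 and 1.41 times in Fos, the 3 members with the largest excess in Ctrl replicate 3, and it was the lowest of the 6 mice in 4 of them (Jun, Junb, Atf3 and Dusp1).

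Markers of several other cell types moved with these values, but not those of all. The 6 smooth muscle markers (Acta2, Myh11, Tagln, Cnn1, Des and Actg2) were all called lower in OEx mice, and summed to 419 to 505 FPKM in OEx mice, 1252 and 1277 FPKM in 2 Ctrl mice and 2671 FPKM in Ctrl replicate 3, which was 2.11 times the others. Of the 5 erythrocyte markers 4 were called lower, with sums of 11 to 25.4 FPKM in OEx mice and 35.8 to 155 FPKM in Ctrl mice, and Ctrl replicate 3 was 4.17 times the other Ctrl mice. All 4 basal epithelium markers were called lower, at 6.79 to 15.9 against 212 to 249 FPKM, and 3 of 8 luminal markers, at 3262 to 6350 against 16910 to 20690 FPKM. Endothelial markers summed to 6.67 to 8.04 against 18.6 to 24.0 FPKM, with 1 of 5 called lower, and glial markers to 2.05 to 2.61 against 5.67 to 7.58 FPKM, with the 1 tested of 4 called lower. Neither the 6 fibroblast markers nor the 4 tested of 8 leukocyte markers held a called gene. Fibroblast markers summed to 250, 252 and 25.1 FPKM in OEx mice and 54.4, 53.1 and 94.7 FPKM in Ctrl mice. Leukocyte markers summed to 204, 188 and 15.9 against 30.5, 32.0 and 70.5 FPKM. In both lists OEx replicates 1 and 2 were above every Ctrl mouse, and OEx replicate 3 was below every Ctrl mouse. Among all tested genes the share called lower was 15.7%. No defining marker of smooth muscle or luminal epithelium was under 1 FPKM in any mouse. The part of these cells in the change of the members was not tested.

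**Figure D4:**
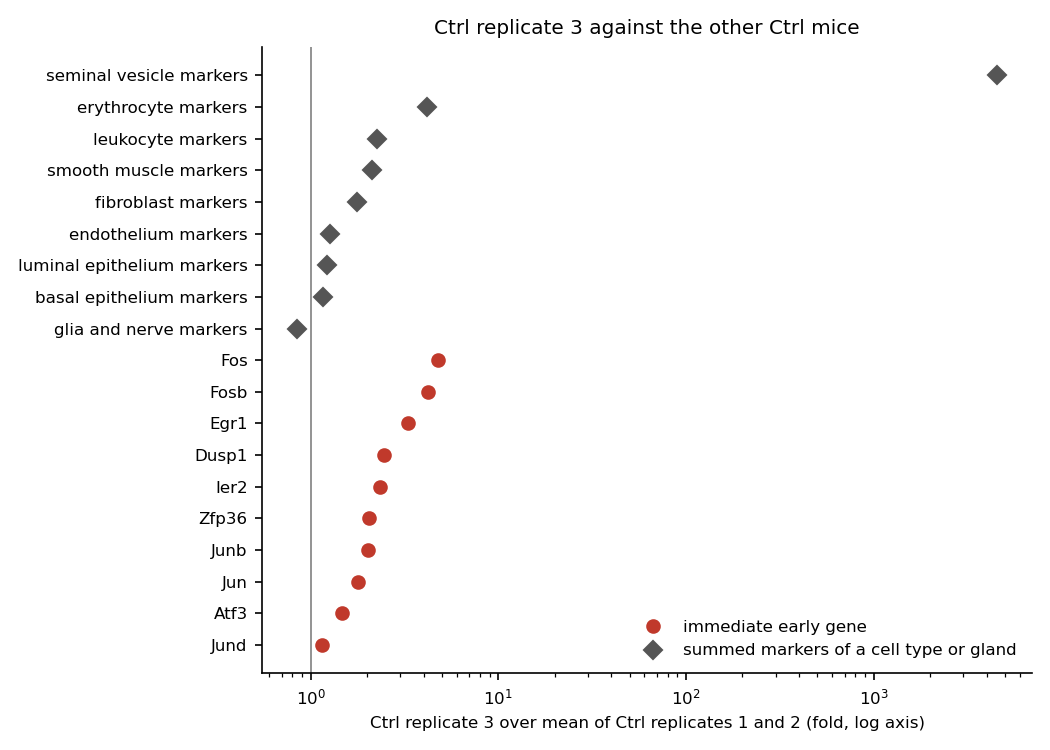
Value in Ctrl replicate 3 divided by the mean of Ctrl replicates 1 and 2 (log axis), for the summed FPKM of each marker list (diamonds) and for each immediate early gene (circles). The members range from 1.15 (Jund) to 4.75 (Fos). Fibroblast markers are at 1.76, smooth muscle markers at 2.11, leukocyte markers at 2.26, erythrocyte markers at 4.17 and seminal vesicle markers at 4542. The remaining lists range from 0.848 (glia and nerve) to 1.26 (endothelium).

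The members were also set against the smooth muscle markers. Per 100 FPKM of those markers, Fosb was lower in every OEx mouse than in every Ctrl mouse, and the groups overlapped for Fos, Junb, Jund, Egr1, Atf3 and Dusp1. Jun was then at 10.3, 10.8 and 9.81 in OEx mice and 4.13, 4.30 and 3.57 in Ctrl mice. Ier2 was at 14.3, 13.2 and 15.5 against 4.34, 4.36 and 4.79, and Zfp36 at 3.92, 3.95 and 4.65 against 1.39, 1.3 and 1.29. These 3 genes were higher in every OEx mouse on this scale, as were 80.9% of all tested genes, since the markers themselves fell. Of all tested genes 2.29% were lower in every OEx mouse. Fosb, which was lower too, passed the filter on low values only through Ctrl mice, so it gives no support here. The exact permutation p was 0.1 for each of Jun, Ier2, Zfp36 and Fosb, the smallest possible, and 0.25 after adjustment over the 10 members. This ratio was chosen after the values were seen.

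The remaining AP-1 subunits did not fall as a group. Of 11 tested of 14, 3 were called lower (27.3%, against 15.7% of all tested genes). The median change of the 11 was 0.20 on the log2 scale. Batf3, an AP-1 factor of dendritic cells, was at 1.04, 1.01 and 0.451 FPKM in OEx mice and 10.5, 10.2 and 12.4 FPKM in Ctrl mice (a log2 change of -2.72), and it passed the filter on low values only through Ctrl mice. Atf4, the effector of the integrated stress response, was at 47.7, 43.2 and 46.1 against 207, 208 and 205 FPKM (-2.16, limma FDR 1.69e-05). Jdp2, which dimerises with Jun, had a log2 fold change of -1.45 (limma FDR 0.0012). In Batf3 and Atf4, Ctrl replicate 3 was close to its group mates, unlike in Fos.

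Among 30 tested early response genes beside the members, 7 were called lower (Nr4a1, Klf2, Btg2, Cyr61, Rhob, Sgk1 and Csrnp1) and 2 higher (Ier5 and Zfp36l1), with a median of -0.14. The shares were 23.3% lower and 6.67% higher, against 15.7% and 12.9% of all tested genes. Ctrl replicate 3 was the highest mouse in 11 of the 30 (36.7%), against 21.0% of all tested genes. Nr4a1, an orphan nuclear receptor, was at 6.89, 7.88 and 8.54 FPKM in OEx mice and 48.2, 50.3 and 127 FPKM in Ctrl mice (a log2 change of -2.97, limma FDR 4.81e-04). Cyr61, which encodes a matrix protein, was at 11.4, 11.4 and 2.30 against 29.3, 27.7 and 93.8 FPKM (-2.45, limma FDR 0.0158), and Btg2, an antiproliferative gene, at 14.0, 13.6 and 10.2 against 33.2, 33.5 and 89.2 FPKM (-1.81, limma FDR 0.00547). These 3 shared with Fos and Egr1 the excess in Ctrl replicate 3. Zfp36l1, a homologue of Zfp36 in messenger decay, was at 53.8, 59.0 and 68.6 against 16.9, 15.2 and 16.5 FPKM and rose by 1.83 on the log2 scale (limma FDR 4.05e-05), with no excess in that mouse. Zfp36 and Zfp36l1 thus took different courses, of -0.13 and 1.83.

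**Figure D5:**
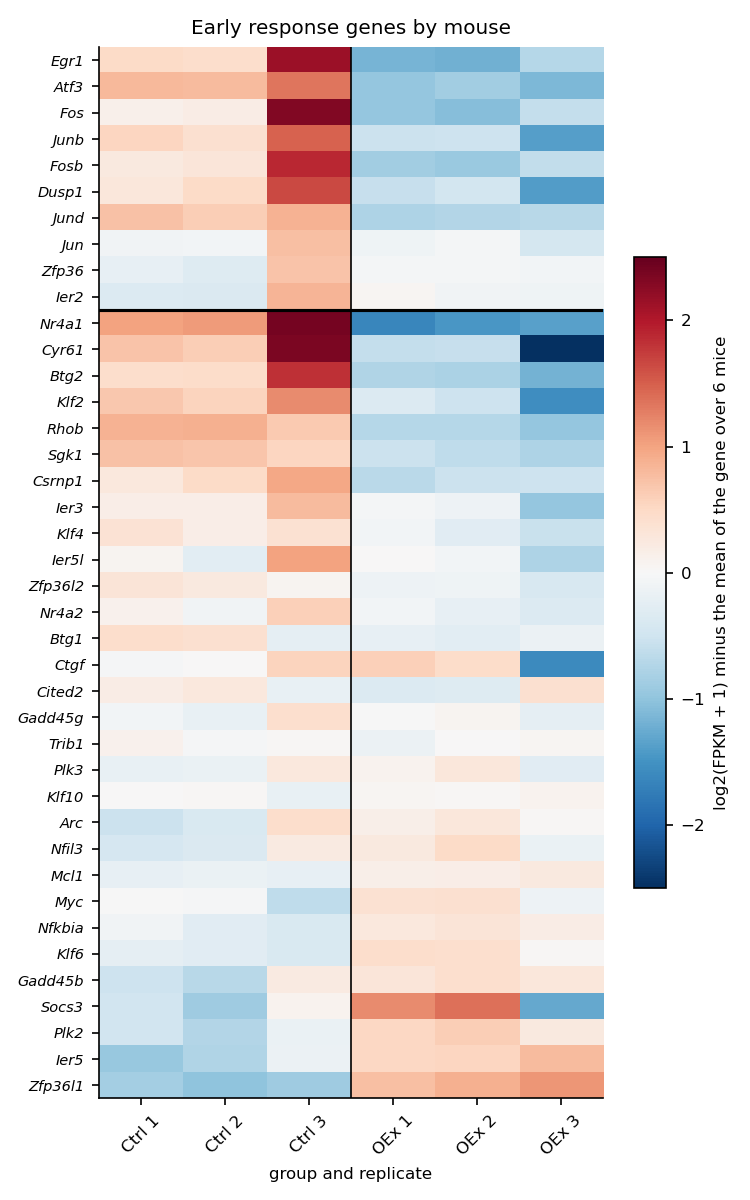
Log2(FPKM + 1) minus the mean of each gene over the 6 mice (colour), for the 10 immediate early genes above the black line and 30 other early response genes under it, 1 column per mouse. The members and Nr4a1, Cyr61 and Btg2 are deepest red in Ctrl replicate 3, whereas Zfp36l1 and Ier5 are red in the OEx mice.

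Other phosphatases of the Dusp1 family gave 2 of 6 tested genes called lower (33.3%, against 15.7% of all tested genes). None was called higher, and the median was -0.86. Dusp5, a nuclear phosphatase of ERK, was at 0.912, 1.17 and 1.75 FPKM in OEx mice and 13.5, 15.8 and 17.5 FPKM in Ctrl mice (a log2 change of -2.88, limma FDR 3.49e-05). Dusp8, which acts on JNK and p38, was at 3.23, 3.29 and 2.68 against 7.88, 7.60 and 7.47 FPKM (-1.09, limma FDR 1.24e-04). Dusp6 and Dusp7, phosphatases of ERK in the cytoplasm, had values of -0.99 (limma FDR 0.0256) and -0.39 (limma FDR 0.0152), short of the fold criterion. Dusp6 was called when OEx replicate 1 or 2 or Ctrl replicate 1 or 2 was left out (-1.06 to -1.21), and Dusp7 changed sign under TPM scaling to 0.43.

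Upstream of the members, 9 factors of the serum response, ternary complex and CREB families were tested, and 1 was called in each direction. That is 11.1% each way, against 15.7% lower and 12.9% higher of all tested genes. Srf, the serum response factor, was at 12.7, 12.1 and 13.3 FPKM in OEx mice and 33.1, 30.06 and 30.03 FPKM in Ctrl mice (a log2 change of -1.23, limma FDR 5.48e-05). Creb1, the factor of the cyclic AMP response element, was at 4.01, 3.65 and 3.81 against 1.07, 0.899 and 1.43 FPKM (1.18, limma FDR 2.54e-04), but at 0.64 and not called after GC correction. Of 14 tested MAP kinases and their kinases, 3 were called lower (21.4%) and 1 higher (7.14%), against 15.7% and 12.9% of all tested genes. Their median was -0.07. Mapk3, which encodes ERK1, was at 85.2, 89.8 and 108 against 260, 254 and 217 FPKM (-1.36, limma FDR 1.57e-04). Map2k2 and Map2k3, kinases of ERK and of p38, had values of -1.46 (limma FDR 3.9e-05) and -1.45 (limma FDR 8.4e-05). Mapk13, a p38 kinase of epithelia, was at 45.5, 45.7 and 41.6 against 9.72, 9.59 and 10.3 FPKM and rose by 2.06 (limma FDR 1.74e-05). Transcript levels say nothing of the phosphorylation of these kinases, which was not analysed here.

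Of 11 heat shock genes, 3 were called lower (27.3%) and 1 higher (9.09%), against 15.7% and 12.9% of all tested genes. Ctrl replicate 3 was the highest mouse in 5 (45.5%), against 21.0% of all tested genes. Hspa1a, an inducible chaperone, was at 5.68, 5.03 and 3.34 FPKM in OEx mice and 13.0, 11.3 and 51.9 FPKM in Ctrl mice (a log2 change of -1.90, limma FDR 0.0199), with a limma FDR of 0.0594 without OEx replicate 3 and a change of -1.23 without Ctrl replicate 3. Hspa1b, a near-identical copy with which it can share reads, was at 21.3, 22.9 and 15.4 against 40.7, 46.0 and 120 FPKM (-1.58, limma FDR 0.0124). Hsp90aa1, a stress-inducible chaperone of client kinases, was at 52.4, 48.0 and 54.2 against 19.7, 18.9 and 31.0 FPKM and rose by 1.15 (limma FDR 0.00175). The inducible chaperones therefore had no common direction, and their part in the values of the members was not tested. Under TPM scaling, Jdp2, Btg2, Cyr61, Dusp8, Srf, Mapk3, Map2k2, Map2k3, Hspa1a and Hspa1b kept their direction and lost their call, and the other called genes given with values beside the members kept theirs.

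The genes most like the members were sought among the 4537 genes that averaged 10 FPKM or more, by the root mean square difference of centred log2(FPKM + 1) over the 6 mice. The mean of the members was -0.60, -0.60 and -0.71 in OEx mice and 0.26, 0.25 and 1.4 in Ctrl mice on that scale. The closest were Tpm1, a tropomyosin (difference of 0.0761), the predicted gene Gm10146 (0.122), the kinase gene Sik1 (0.130), Jph2 (0.135) and Gas1 (0.137). Tpm1 was at 34.8, 33.9 and 29.1 FPKM in OEx mice and 60.0, 59.0 and 120.1 FPKM in Ctrl mice. For Fos alone the closest were the haemoglobin genes Hba-a1 (0.120) and Hbb-bs (0.247), then Gm11942 (0.257), Gm10073 (0.296) and Ppp1r14a (0.312). Hba-a1 was at 3.77, 3.18 and 6.0 FPKM in OEx mice and 10.2, 10.8 and 41.7 FPKM in Ctrl mice, beside 4.37, 4.0 and 5.91 and 10.5, 10.97 and 50.9 FPKM of Fos.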

How the data were processed

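The authors deposited 1 table of FPKM values per mouse, made with an in-house pipeline. The submitters' processing notes name HISAT2 2.0.5, featureCounts 1.5.0-p3, StringTie 1.3.3b and CASAVA without their roles, and the genome build and strand setting are not given in the sources used here. RNA came from AP tissue and libraries from the TruSeq kit. Rows were matched by symbol to GENCODE M21 (GRCm38), which placed 53636 of 55076 rows. Reads were recovered from the FPKM values and exon lengths. Between 96.9% and 97.5% of values under 1000 reads came out whole within 0.05 reads, and 3 reads equal a CPM of 0.161 to 0.203. The values already carry a scaling between mice: the denominator behind them, divided by the recovered reads, was 1.22 to 1.35 for OEx and 0.726 to 0.815 for Ctrl libraries.

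The 2 genotypes were set against each other on log2(FPKM + 1) in limma 3.58.1 (R 4.3.3), with genotype as the only term and an intensity trend, over the 12833 rows that averaged 1 FPKM or more, and p-values were adjusted over all of them (Benjamini-Hochberg). Calls needed an FDR under 0.05 and a log2 fold change beyond 1 in size. The result of 1 listed gene is not reported here. Exact permutation tests were two-sided. Steps were tested on simulated data. The members and gene lists were chosen with earlier results of these data known. Every member was named, and from each other list up to 4 genes, the called ones with the largest change first, then the most abundant. Fosl2, and called genes listed without values, were named after their values were seen. Alternatives were other scalings, filters, pseudocounts and variance models, GC correction, limma-voom on recovered reads, a replicate block and leaving out each mouse. Leaving out both replicate 3 mice, and averaging replicates 1 and 2, were added after seeing the data. Plots were made with Python 3.11.15 and matplotlib 3.10.9.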

Additional observations from a re-analysis of the deposited data

How the results depend on the processing

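Of the 7 members called lower, TPM scaling left 3, scaling without the 20 most abundant genes 3 and GC correction 4, and the other alternatives 6 or 7. The 3 left by both scalings include Fosb, which passed the filter on low values only through Ctrl mice. Leaving out each mouse gave 6 to 7 called lower, 0 called higher, and over all genes 1614 to 1726 higher and 1987 to 2043 lower, where all 6 mice gave 1653 and 2021. The number of genes called higher was 681 with a mean of at least 5 FPKM, 4458 with TPM scaling, 3477 without the 20 most abundant genes, 2486 with limma-voom and 3941 without the fold criterion. The number called lower was 504 with TPM scaling, 717 without the 20 most abundant genes and 4680 without the fold criterion. Apart from those set by the fold criterion and by the filter, the cause of these shifts was not tested.

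Log2 fold changes changed sign for Jun (0.48 with TPM scaling, 0.24 without the 20 most abundant genes, 0.006 with GC correction), Ier2 (0.79, 0.54 and 0.43), Zfp36 (0.74, 0.50 and 0.27) and Dusp7 (0.43, 0.21 and 0.041), and with TPM scaling for Ier3 (0.12). Leaving out each mouse gave -0.31 to 0.29 for Ier2 and -0.32 to 0.20 for Zfp36. Without both replicate 3 mice, Ier2 was at 0.32, Zfp36 at 0.21 and Mkl2 at -0.053, against 0.015 to 0.38 with each mouse left out. Over the alternatives, 159 values of members kept direction and side of the threshold, 17 lost the call and 13 changed sign. Those that lost it were of Fos, Fosb, Junb, Jund and Dusp1, and Egr1 and Atf3 kept it under every alternative run. Fos missed the threshold with no filter on low values (limma FDR 0.0657) and with replicates 1 and 2 averaged (0.0672).

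Deviations of same-numbered mice from their group means had Pearson r across genes of -0.194, -0.189 and -0.307. Such deviations cancel within a group, and replicate 3 stood furthest from the others in each group. The correlations therefore cannot decide whether the mice are paired. With a block for the replicate number, 7 members were called lower, and 1611 genes were called higher and 1986 lower. Of the named genes, Cyr61 (limma FDR 0.0619) and Hspa1a (0.0503) lost their call with the block.

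With 3 mice a group, exact tests of single values cannot reach 0.05. Fosb rests on 33 to 60 reads in OEx mice.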

Other observations

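Zfp36 encodes tristetraprolin, and of 10 transcripts it is known to bind, 9 were under the filter on low values, so they were not tested. Ptgs2, which encodes cyclooxygenase 2, had 222, 223 and 13 reads in OEx mice and 18, 11 and 45 in Ctrl mice. Il1b, an inflammatory cytokine, had 76, 89 and 8 reads against 5, 5 and 33, and Ccl2, a monocyte chemokine, 46, 47 and 4 against 4, 7 and 8. In these 3 transcripts OEx replicates 1 and 2 were the highest of the 6 mice and OEx replicate 3 lay within or under the Ctrl range. Csf2 had 0 reads in every mouse, and Il6 had at most 2, under the 3 reads that a count of 0 allows. Ier3, the tested one, had a log2 fold change of -0.76 (limma FDR 0.0550). These 3 transcripts were singled out after their values were seen.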
